A study of Mus musculus with 35 samples.

Results

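The genes described here are 46 mouse genes that copy DNA or act at the entry into S phase, taken by symbol from a table of 20261 genes for the inhibitor experiment; all 46 symbols were present. They were measured in NMuMG cells, an epithelial line from the mouse mammary gland (strain E9, genotype WT in the labels), which loses junctions and gains mesenchymal traits, an epithelial-mesenchymal transition, when given transforming growth factor beta (TGF-β). RNA sequencing covered 35 samples. Of these, 20 form the inhibitor experiment: cells given JNKi, a c-Jun N-terminal kinase inhibitor whose compound is not named, or DMSO, at 24, 48, 72 and 96 h and 7 d, with 2 replicates per group. The protocol common to all samples names TGF-β at 2 ng/ml with fresh medium every 2 days, and it is the only statement on TGF-β for both the JNKi and the DMSO cells, so no arm without TGF-β is at hand and time, culture and TGF-β cannot be told apart. The other 15 samples, a TGF-β time course without DMSO or JNKi, were not analysed here, and the experiment used here has no 0 h group.

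DNA replication starts in G1, when the origin recognition complex with Cdc6 and Cdt1 loads the ring of Mcm2 to Mcm7 on DNA. At the G1/S boundary cyclin E with its kinase, together with Cdc45, Mcm10 and the GINS complex, turns that ring into a moving helicase, and polymerases, a sliding clamp and a supply of deoxynucleotides follow. Many of these genes are targets of E2F transcription factors, which the retinoblastoma proteins hold inactive in G1, and TGF-β is known to slow the cycle of many epithelial cells in G1. In tissue and in culture their summed RNA is widely used as a sign of how many cells are cycling.

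The promoters of these genes were inspected for the E2F site, since its known targets make up much of the set. RefSeq windows of 300 bases (250 before and 50 after the start of the gene, build GRCm38.p6) were at hand for 37 of the 46 members. The motif was any of TTTCCCGC, TTTCGCGC, TTTGCCGC and TTTGGCGC on the gene's strand or GCGGGAAA, GCGCGAAA, GCGGCAAA and GCGCCAAA for the opposite strand. It occurred in 14 of the 37 members (37.8%), against 4.43% of 9732 tested genes with a window and 2.26% of all 32851 windows. The sequence CCAAT on either strand, searched after the values were seen, stood in 59.5% of the members and 42.9% of the tested genes. Printed here are the 5 members with the largest falls at 7 d against 24 h with DMSO among those whose matches lie wholly in the printed stretch (Lig1 is left out for that reason), to set the motif beside the values that follow, and then Orc6 and Gins3, the members with the smallest changes in that comparison. The stretch was chosen after the values were seen. It runs 5′ to 3′ on the gene's strand from 220 bases before to 30 bases after the start, in GRCm38.p6 coordinates, with the motif in capitals. They lie at chr17:56304093-56304342 (+) for Uhrf1, chr8:75109289-75109538 (+) for Mcm5, chr1:128359676-128359925 (-) for Mcm6, chr12:69228161-69228410 (-) for Pole2, chr5:138171854-138172103 (-) for Mcm7, chr8:85299412-85299661 (+) for Orc6 and chr8:95633339-95633588 (+) for Gins3.
Uhrf1: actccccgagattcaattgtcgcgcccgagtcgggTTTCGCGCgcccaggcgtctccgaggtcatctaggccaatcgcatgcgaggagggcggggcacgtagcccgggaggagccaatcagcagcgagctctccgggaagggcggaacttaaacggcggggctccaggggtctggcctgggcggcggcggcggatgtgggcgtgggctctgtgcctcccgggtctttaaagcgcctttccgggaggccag
Mcm5: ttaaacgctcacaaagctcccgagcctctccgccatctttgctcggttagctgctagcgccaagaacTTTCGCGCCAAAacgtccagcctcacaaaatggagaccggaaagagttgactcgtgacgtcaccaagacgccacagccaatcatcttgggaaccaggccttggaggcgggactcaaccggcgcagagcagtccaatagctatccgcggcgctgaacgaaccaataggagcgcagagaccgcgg
Mcm6: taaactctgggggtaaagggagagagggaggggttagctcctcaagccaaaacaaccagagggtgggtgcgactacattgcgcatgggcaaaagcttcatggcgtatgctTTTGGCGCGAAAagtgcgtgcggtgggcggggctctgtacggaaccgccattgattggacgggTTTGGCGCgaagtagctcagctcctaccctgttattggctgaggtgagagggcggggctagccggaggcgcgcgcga
Pole2: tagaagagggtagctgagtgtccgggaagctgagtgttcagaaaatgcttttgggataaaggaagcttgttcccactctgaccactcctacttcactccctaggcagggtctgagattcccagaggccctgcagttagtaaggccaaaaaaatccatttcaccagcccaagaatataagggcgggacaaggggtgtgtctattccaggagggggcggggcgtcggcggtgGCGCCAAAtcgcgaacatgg
Mcm7: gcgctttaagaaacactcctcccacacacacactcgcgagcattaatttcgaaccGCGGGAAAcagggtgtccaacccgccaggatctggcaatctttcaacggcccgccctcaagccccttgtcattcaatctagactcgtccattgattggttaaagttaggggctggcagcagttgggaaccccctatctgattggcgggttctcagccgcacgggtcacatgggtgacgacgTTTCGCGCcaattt
Orc6: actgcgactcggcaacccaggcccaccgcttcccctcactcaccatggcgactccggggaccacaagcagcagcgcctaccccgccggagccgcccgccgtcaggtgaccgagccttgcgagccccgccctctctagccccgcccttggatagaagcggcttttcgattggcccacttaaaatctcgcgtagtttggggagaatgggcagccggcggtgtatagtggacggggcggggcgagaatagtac
Gins3: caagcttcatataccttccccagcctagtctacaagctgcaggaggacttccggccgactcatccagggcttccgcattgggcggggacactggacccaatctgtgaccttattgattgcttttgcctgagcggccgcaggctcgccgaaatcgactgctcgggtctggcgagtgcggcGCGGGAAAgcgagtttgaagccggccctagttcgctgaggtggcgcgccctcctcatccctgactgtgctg

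Motifs on both strands overlap by 4 bases in Mcm5 and in Mcm6, which gives a run of 12 capitals, and Mcm6 has a further copy nearer its start. Orc6 held no match in the whole window, and Gins3 held 1 on the opposite strand. The members with the motif had a median log2 change of -1.26 at 96 h against 24 h with DMSO, and the 23 with a window and no match had -1.59. At 7 d against 24 h the order was the other way, at -1.07 with the motif and -0.92 without. A match is a description of letters in a window and says nothing of binding.

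Libraries held 9.49 to 48.6 M reads, recovered from the normalized values, and JNKi 7 d replicate 1 was the shallowest. The lowest count of any member in any library was 79 reads (Pole2 in that library). Values below are the authors' normalized read counts, which are relative to the other genes of a library; in RNA from whole cultures, fewer cells in S phase and less RNA per cell cannot be told apart. A gene is said to have risen or fallen where limma on log2(value + 1) gave a Benjamini-Hochberg adjusted p under 0.05 over all 13896 genes tested. Log2 changes are on that scale and carry the model's standard error (SE). The labels do not say that replicates were separate cultures, so these p-values measure the spread between libraries, which may be technical.

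The cells carried the RNA of simple epithelium but not all of its defining markers. Cdh1 (E-cadherin), Krt8 and Krt18 were high in every library (Cdh1 at 3746 or more), while Epcam was listed at 0 in all but 1 library at 24 to 96 h and reached 8.1 to 12.6 at 7 d in both arms. Of the leukocyte markers, Ptprc was at 11.1 and 17.5 in JNKi and 11.8 and 5.4 in DMSO libraries at 7 d, against 0 to 6.9 in the earlier libraries. Itgam (myeloid cells) was at 30.5 and 29.4 in JNKi and 10.1 and 8.8 in DMSO libraries at 7 d, against 1.2 to 10.0 in the earlier libraries, and Cd3e (T cells) was at most 2.0 in any library. The sum over Pecam1, Cdh5, Kdr and Tek, endothelial markers carried mostly by Cdh5, was 407.5 and 408.1 in JNKi and 348.5 and 299.5 in DMSO libraries at 7 d, 195.2 and 156.2 in JNKi and 133.3 and 210.2 in DMSO libraries at 96 h, and 73 and 65.5 in JNKi and 87.1 and 59.1 in DMSO libraries at 24 h. The fibroblast sum over Pdgfra, Dcn, Lum and Col1a1, carried mostly by Col1a1, ranged from 551.2 to 1942, with Dcn at most 8.3 and Lum at most 3.5. Of 4 markers each, 3 endothelial and 2 fibroblast markers passed the filter on low values. The epithelial sum over Cdh1, Krt8, Krt18 and Epcam was 100173 and 93107 in JNKi and 126651 and 160674 in DMSO libraries at 7 d, against 312121 and 351818 in JNKi and 308974 and 327165 in DMSO libraries at 24 h. These markers move with time, as the replication genes do, and their part in the results was not tested.

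Most replication genes were lower at 96 h than at 24 h, with and without the inhibitor, and most had their lowest level then. At 96 h, 45 of 46 members had fallen with JNKi (background 29% of genes tested lower) and all 46 had fallen with DMSO (30.5%). The median log2 change was -1.34 with JNKi and -1.49 with DMSO, against 0.07 over all genes tested in each arm. In each arm both 96 h libraries lay below both 24 h libraries for all 46 members. The share of all genes tested that did so was not counted. The median member stood at 39.2% of its 24 h mean with JNKi (range 7.82% to 87.4%) and at 35.1% with DMSO (range 9.30% to 77.5%). Gins3, a GINS subunit, was the member not past the test at 96 h with JNKi, at -0.41 (SE 0.18, adjusted p = 0.0587).

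The decline came in steps. At 48 h, 21 members had fallen with JNKi (background 11.2%) and 37 with DMSO (13.7%), with medians of -0.35 and -0.52. At 72 h, 35 had fallen with JNKi (19.1%) and 39 with DMSO (22.8%), with medians of -0.52 and -0.65. All of these comparisons share the 24 h libraries of their arm, and replicate 2 stood above replicate 1 at 24 h in 45 members with JNKi and 46 with DMSO. The 48 h counts depended on single libraries. Without JNKi 24 h replicate 2, JNKi 48 h replicate 1 or JNKi 48 h replicate 2 the JNKi count became 0, 8 or 12, and without DMSO 24 h replicate 2 or DMSO 48 h replicate 2 the DMSO count became 13 or 18. Without JNKi 24 h replicate 2 the JNKi count at 72 h became 20. The step from 72 to 96 h, which leaves out the 24 h libraries and was added after the values were seen, gave similar counts: 41 members fell with JNKi (background 17.3%) and 41 with DMSO (20.8%), 40 of them in both arms, with medians of -0.77 and -0.78. Mcm10, Gins3, Pold2 and Rfc1 fell in neither arm in that step.

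By 7 d part of the level had returned. Against 96 h, 36 members rose with JNKi (background 23.2% of genes tested higher) and 29 with DMSO (21%), with medians of 0.70 and 0.49. These lists shared 27 members, which is 27 of 36 with JNKi and 27 of 29 with DMSO. Both 7 d libraries lay above both 96 h libraries in 41 members with JNKi and 38 with DMSO. The share of all genes tested that did so was not counted. Without DMSO 7 d replicate 2, which stood above DMSO 7 d replicate 1 in 44 members, the DMSO count became 10. Even so, at 7 d against 24 h, 37 members passed the test as lower with JNKi (26.3% lower in the background) and 43 with DMSO (28%). The medians over all members were -0.76 and -0.94, and the median member stood at 58.9% and 51.2% of its 24 h mean. No member rose in any comparison of 48 h, 72 h, 96 h or 7 d with 24 h, or of 96 h with 72 h, and no member fell between 96 h and 7 d.

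**Figure D1:**
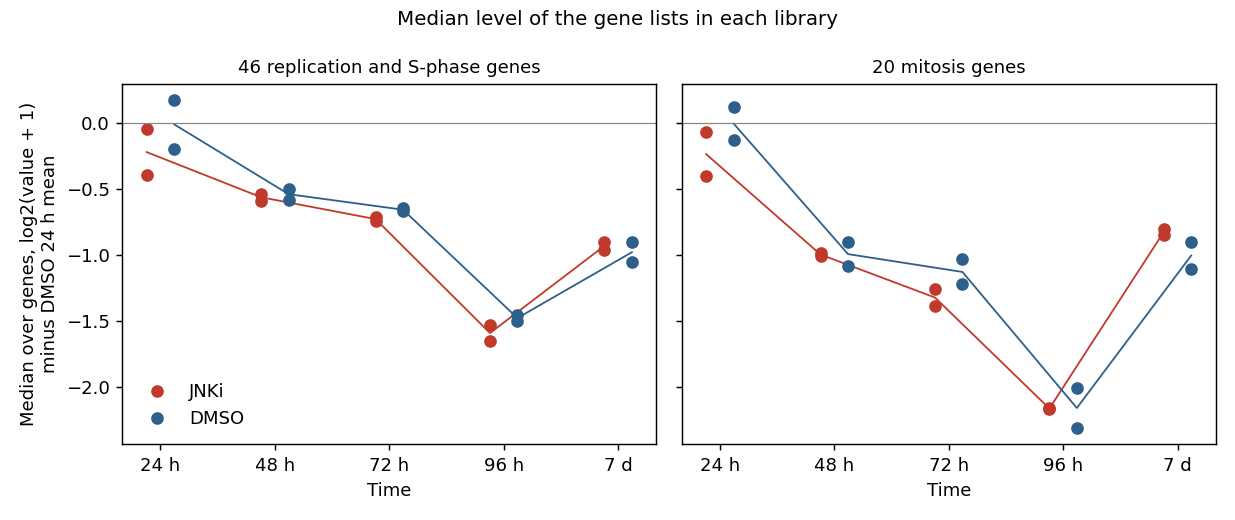
Median over 46 replication and S-phase genes (left) and 20 mitosis genes (right) of log2(value + 1) minus the DMSO 24 h mean, in each library against time, with JNKi in red and DMSO in blue; lines join the means of 2 libraries. The replication median is lowest at 96 h, at -1.65 and -1.53 in the JNKi libraries and -1.46 and -1.50 in the DMSO libraries, and stands between -1.06 and -0.90 in the 4 libraries at 7 d.

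The course was the same in kind over nearly the whole set. The mean was lowest at 96 h in 42 members in each arm and at 7 d in the other 4 (Mcm7 and Rfc1 in both arms, Pola1 and Pold2 with JNKi, and Cdt1 and Pold1 with DMSO). It was highest at 24 h in 44 members with JNKi (not Gins3 or Ccne1) and in all 46 with DMSO. Scaled to library size (RPM, from the recovered reads), the 46 genes together took 1632 and 1808 RPM at 96 h, against 3660 and 4440 at 24 h, with JNKi, and 1780 and 1797 at 96 h, against 4165 and 5143 at 24 h, with DMSO. At 7 d the sum was 2771 and 2603 RPM with JNKi and 2223 and 2635 with DMSO. Across the 46 members the changes at 96 h against 24 h in the JNKi and DMSO arms had a Pearson correlation of 0.97. Those at 7 d against 24 h had 0.79. The arms share no library, but same-number libraries shared deviations between them at 24 and 96 h (correlations of 0.73 and 0.53). The changes in the arms are thus not fully separate, and these are descriptions across genes, which are not independent.

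**Figure D2:**
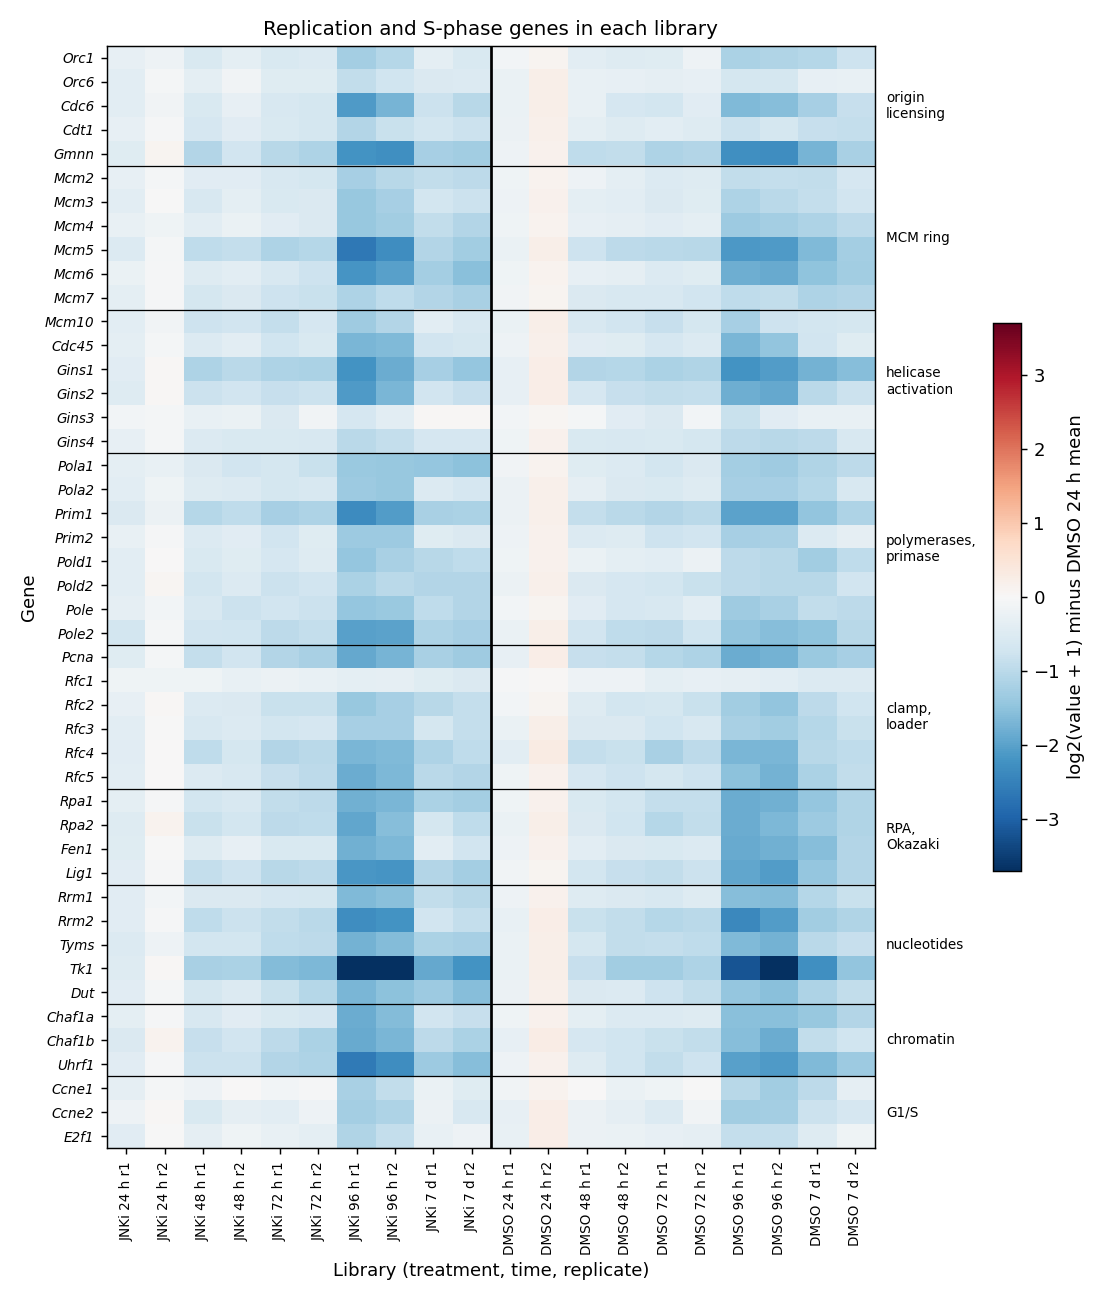
Each member (rows, grouped by role) in each library (columns, JNKi left of DMSO, times in order) as log2(value + 1) minus the DMSO 24 h mean; blue is lower. The 96 h columns are the darkest for most rows, down to the Tk1 row with mean log2 changes of -3.65 with JNKi and -3.43 with DMSO against 24 h, while the Rfc1 and Gins3 rows stay pale.

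The licensing factors load the helicase in G1 and include the inhibitor of that step. All 5 fell at 96 h in both arms, with medians of -0.90 with JNKi and -1.14 with DMSO. At 7 d against 24 h, 3 passed the test as lower with JNKi and 4 with DMSO. Geminin (Gmnn) binds Cdt1 and blocks another round of loading. With JNKi, Gmnn had 896 and 1312 after 24 h, 572 and 737 after 48 h, 596 and 546 after 72 h, 261 and 249 after 96 h and 513 and 496 after 7 d. Gmnn with DMSO had 1061 and 1362 after 24 h, 626 and 642 after 48 h, 548 and 577 after 72 h, 249.7 and 246 after 96 h and 365 and 523 after 7 d. The 96 h libraries of Gmnn were the lowest in each arm without overlap, and every later library lay below both 24 h libraries of its arm. Its change was -2.09 (SE 0.18, adjusted p = 9e-08) with JNKi and -2.27 (SE 0.18, adjusted p = 2.42e-08) with DMSO. Cdc6 is the ATPase that helps place the ring on DNA. Cdc6 measured 895 and 1078 after 24 h, 795 and 953 after 48 h, 783 and 747 after 72 h, 278 and 356 after 96 h and 676 and 583 after 7 d in JNKi cells. In DMSO cells Cdc6 measured 1004 and 1367 after 24 h, 979 and 774 after 48 h, 737 and 892 after 72 h, 385 and 398 after 96 h and 502 and 660.3 after 7 d. Its 96 h libraries were the lowest of each arm without overlap, at -1.64 (SE 0.18, adjusted p = 1.03e-06) with JNKi and -1.58 (SE 0.18, adjusted p = 1.13e-06) with DMSO. Orc6, the smallest subunit of the origin recognition complex, changed least of the 5. With JNKi, Orc6 had 1117 and 1408 after 24 h, 1149.9 and 1346 after 48 h, 1087 and 1068 after 72 h, 782 and 878 after 96 h and 1018 and 1031 after 7 d. Orc6 with DMSO had 1237 and 1701 after 24 h, 1211 and 1201 after 48 h, 1174 and 1187 after 72 h, 936 and 930.1 after 96 h and 1198 and 1208 after 7 d. The 7 d libraries lay below the 24 h libraries of their arm, yet neither arm passed the test at 7 d, with -0.29 (SE 0.13, adjusted p = 0.0633) in JNKi cells and -0.27 (SE 0.13, adjusted p = 0.0823) in DMSO cells.

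The 6 subunits of the MCM ring, the core of the helicase, all fell at 96 h and at 7 d in both arms, with 7 d medians of -0.84 with JNKi and -1.08 with DMSO. Mcm5 changed most of the 6 at 96 h in both arms and at 7 d with DMSO, but not at 7 d with JNKi, where Mcm6 changed most, at -1.24 (SE 0.12, adjusted p = 3.77e-07). Mcm5 measured 2843 and 3855 after 24 h, 2092 and 2209 after 48 h, 1825 and 1930.0 after 72 h, 643 and 818 after 96 h and 1916 and 1647 after 7 d in JNKi cells. In DMSO cells Mcm5 measured 3414 and 4656 after 24 h, 2383 and 2077 after 48 h, 2039.9 and 1978 after 72 h, 927 and 948 after 96 h and 1298 and 1696 after 7 d. The 96 h libraries of Mcm5 were the lowest in each arm, those at 7 d lay above them, and at 7 d the JNKi libraries overlapped those at 72 h while the DMSO libraries lay below. Mcm5 changed by -0.90 (SE 0.16, adjusted p = 0.00022) at 7 d against 24 h with JNKi and by -1.43 (SE 0.16, adjusted p = 2.11e-06) with DMSO. Mcm2 had a shallower course. With JNKi, Mcm2 had 5357 and 6316 after 24 h, 4989 and 4936 after 48 h, 4364 and 4203 after 72 h, 2828 and 3244 after 96 h and 3546 and 3389 after 7 d. Mcm2 with DMSO had 5942 and 7332 after 24 h, 5769 and 5130.3 after 48 h, 4664 and 4800.0 after 72 h, 3543 and 3577 after 96 h and 3553 and 4347 after 7 d. Its 7 d libraries lay just above those at 96 h with JNKi and overlapped them with DMSO, and the difference between 7 d and 96 h did not pass the test in either arm, at 0.19 (SE 0.11, adjusted p = 0.181) with JNKi and 0.14 (SE 0.11, adjusted p = 0.341) with DMSO. Mcm7 was the other ring subunit with no rise at 7 d in either arm.

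The activators of the helicase, Mcm10, Cdc45 and the GINS subunits, ranged widely. With JNKi 5 of 6 fell at 96 h and with DMSO all 6. Gins1 was among the members that fell most. Gins1 measured 594 and 819.6 after 24 h, 358 and 398 after 48 h, 360.0 and 349 after 72 h, 169 and 223 after 96 h and 338 and 293 after 7 d in JNKi cells. In DMSO cells Gins1 measured 637 and 943 after 24 h, 371 and 378 after 48 h, 348 and 361 after 72 h, 171 and 188 after 96 h and 234 and 264 after 7 d. The 96 h libraries were the lowest in each arm, and those at 7 d lay below all libraries at 24, 48 and 72 h. At 7 d against 24 h it changed by -1.14 (SE 0.18, adjusted p = 7.15e-05) with JNKi and by -1.64 (SE 0.18, adjusted p = 1.73e-06) with DMSO. Gins3 belongs to the same complex. With JNKi, Gins3 had 331 and 339 after 24 h, 297 and 302 after 48 h, 248 and 324 after 72 h, 234 and 272 after 96 h and 369 and 367 after 7 d. Gins3 with DMSO had 336 and 379 after 24 h, 341 and 269 after 48 h, 246 and 334 after 72 h, 201 and 268 after 96 h and 293 and 298 after 7 d. Its JNKi 7 d libraries were the highest of that arm, its DMSO 7 d libraries lay below those at 24 h, and neither 7 d comparison with 24 h passed the test, at 0.14 (SE 0.18, adjusted p = 0.527) with JNKi and -0.27 (SE 0.18, adjusted p = 0.198) with DMSO.

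The 8 subunits of the replicative polymerases and of primase, which lays the RNA primer, all fell at 96 h in both arms, with medians of -1.15 with JNKi and -1.24 with DMSO. Prim1, the catalytic primase subunit, and Prim2, its partner in the same enzyme, differed. Prim1 measured 985 and 1251 after 24 h, 695 and 752 after 48 h, 621 and 650.0 after 72 h, 285 and 342 after 96 h and 627 and 646 after 7 d in JNKi cells. In DMSO cells Prim1 measured 1241 and 1642 after 24 h, 789 and 717 after 48 h, 685 and 725 after 72 h, 366 and 368 after 96 h and 525 and 648 after 7 d. With JNKi, Prim2 had 844 and 978 after 24 h, 712 and 759 after 48 h, 623 and 743 after 72 h, 396 and 397 after 96 h and 746 and 701 after 7 d. Prim2 with DMSO had 898 and 1130.2 after 24 h, 713 and 731 after 48 h, 598 and 624 after 72 h, 432 and 441 after 96 h and 714 and 809 after 7 d. At 7 d the Prim2 libraries overlapped those at 48 h in both arms, and the Prim1 libraries lay below theirs. Against 24 h, Prim1 changed by -0.80 (SE 0.14, adjusted p = 0.000194) with JNKi and -1.29 (SE 0.14, adjusted p = 1.62e-06) with DMSO, and Prim2 by -0.33 (SE 0.12, adjusted p = 0.0263) and -0.41 (SE 0.12, adjusted p = 0.00789) in the same arms. Prim2 with DMSO was not past the test when DMSO 24 h replicate 2 or else DMSO 7 d replicate 1 was left out, or with only the compared groups in the model.

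The sliding clamp Pcna tethers polymerases to DNA and is opened by the clamp loader Rfc1 to Rfc5. All 6 genes fell at 96 h and at 7 d in both arms. Pcna measured 7996 and 10457 after 24 h, 5938 and 6694 after 48 h, 5225 and 4774 after 72 h, 2969 and 3350.3 after 96 h and 4811 and 4405 after 7 d in JNKi cells. In DMSO cells Pcna measured 8933 and 13006 after 24 h, 6067 and 5992 after 48 h, 5272 and 5004 after 72 h, 3069.7 and 3260.1 after 96 h and 4216 and 4715 after 7 d. Every later library lay below both 24 h libraries of its arm. Pcna changed by -1.54 (SE 0.14, adjusted p = 2.02e-07) with JNKi and -1.77 (SE 0.14, adjusted p = 3.03e-08) with DMSO at 96 h. Rfc1, the large subunit of the loader, moved least of all 46 at 96 h. With JNKi, Rfc1 had 2778 and 2761 after 24 h, 2727 and 2522 after 48 h, 2617 and 2561 after 72 h, 2395 and 2449 after 96 h and 2259.8 and 2135 after 7 d. Rfc1 with DMSO had 2998 and 3146 after 24 h, 2714 and 2681 after 48 h, 2409 and 2499.8 after 72 h, 2424 and 2336 after 96 h and 2178 and 2178 after 7 d. Its decline was small, with its lowest values at 7 d in place of 96 h. The change at 7 d was -0.33 (SE 0.07, adjusted p = 0.000501) with JNKi and -0.50 (SE 0.07, adjusted p = 1.18e-05) with DMSO. Rfc2 to Rfc5 fell by 1.03 to 1.56 with JNKi and by 1.24 to 1.64 with DMSO on the log2 scale at 96 h.

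Replication protein A (Rpa1, Rpa2) coats single-stranded DNA, and Fen1 and Lig1 trim and seal Okazaki fragments. All 4 fell at 96 h in both arms, with medians of -1.56 with JNKi and -1.80 with DMSO. Rpa2 measured 914 and 1382 after 24 h, 724 and 793 after 48 h, 654 and 661 after 72 h, 338 and 424 after 96 h and 809.6 and 659 after 7 d in JNKi cells. In DMSO cells Rpa2 measured 1079 and 1470.4 after 24 h, 872 and 758 after 48 h, 616 and 673 after 72 h, 356 and 399.9 after 96 h and 502 and 591 after 7 d. Rpa2 at 7 d was above 96 h without overlap in each arm. Against 24 h it changed by -0.62 (SE 0.18, adjusted p = 0.0081) with JNKi and by -1.21 (SE 0.18, adjusted p = 3.49e-05) with DMSO at 7 d. With JNKi, Fen1 had 1939.7 and 2582 after 24 h, 1878 and 2148 after 48 h, 1785 and 1792 after 72 h, 767 and 823 after 96 h and 2002 and 1615 after 7 d. Fen1 with DMSO had 2308 and 2945 after 24 h, 2009 and 1825 after 48 h, 1792 and 1836 after 72 h, 725 and 761 after 96 h and 879 and 1242 after 7 d. The arms overlapped or touched for Fen1 at 24, 48 and 72 h, and both JNKi libraries lay above both DMSO libraries at 96 h, narrowly, and at 7 d. At 7 d against 96 h it rose by 1.18 (SE 0.16, adjusted p = 4.56e-05) with JNKi and by 0.49 (SE 0.16, adjusted p = 0.0238) with DMSO.

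**Figure D3:**
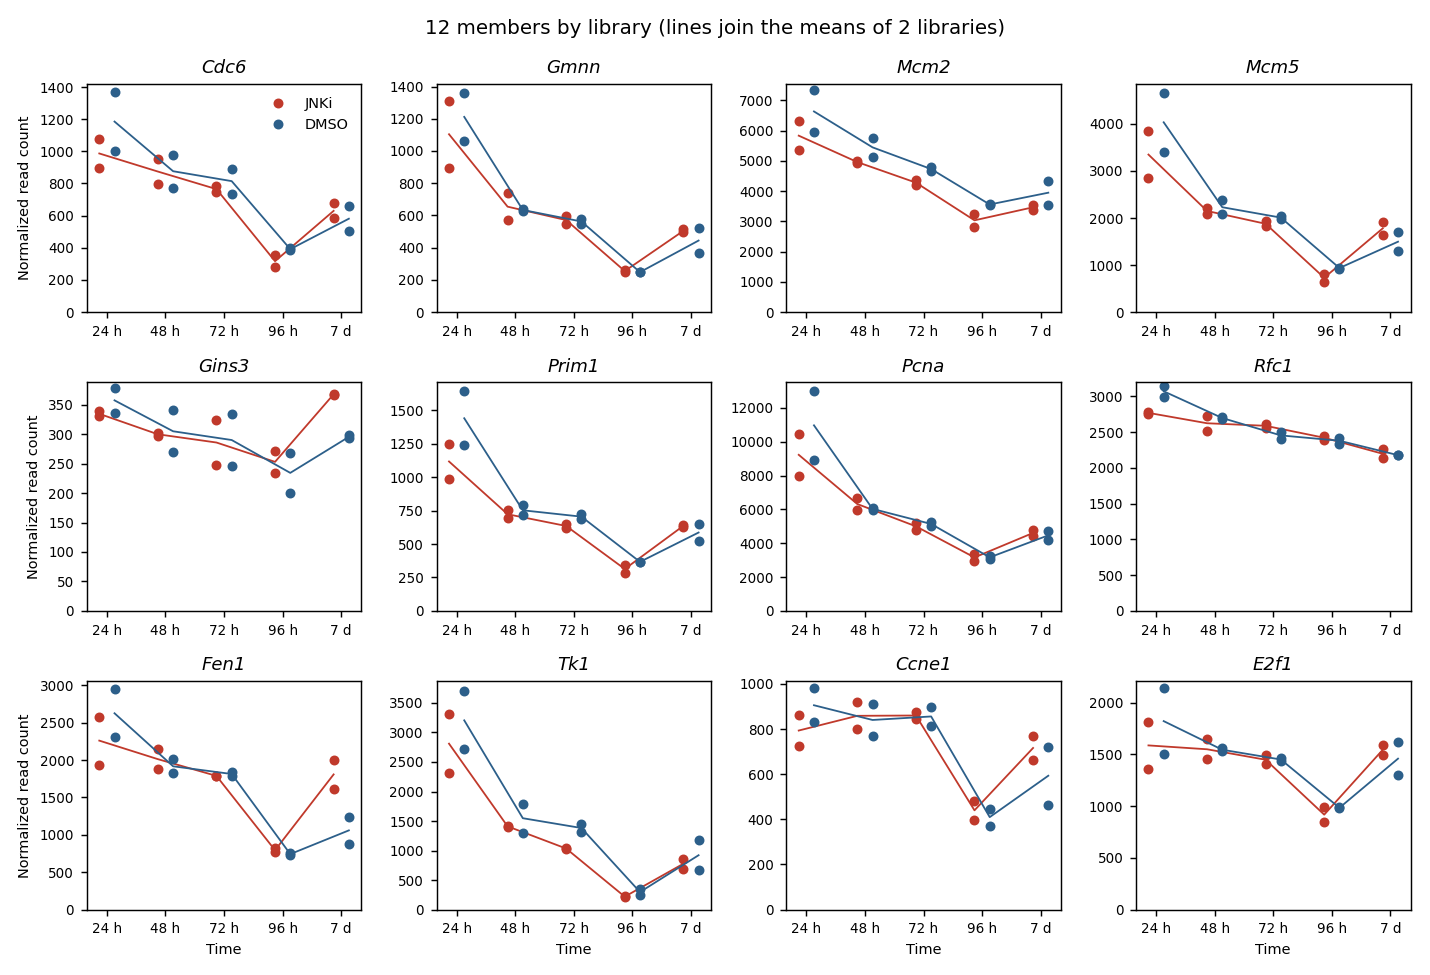
Normalized read count of 12 members in each library (points) against time, with JNKi in red left of DMSO in blue and lines joining the means of 2 libraries; each panel starts at 0. Tk1 at 96 h is at 224.8 and 214.7 with JNKi and 351.5 and 244.7 with DMSO, Rfc1 stays between 2135 and 3146 throughout, and Fen1 at 7 d is at 2002 and 1615 with JNKi, above 878.6 and 1242 with DMSO.

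The enzymes of nucleotide supply feed the fork. Thymidine kinase (Tk1) salvages thymidine, ribonucleotide reductase (Rrm1, Rrm2) makes deoxynucleotides from ribonucleotides, thymidylate synthase (Tyms) makes thymidylate from dUMP, and the dUTPase Dut supplies dUMP and keeps uracil out of DNA. All 5 fell at 96 h and at 7 d in both arms. Tk1 changed most of all members at 96 h in both arms. Tk1 measured 2307 and 3314 after 24 h, 1397 and 1424 after 48 h, 1051 and 1018 after 72 h, 225 and 215 after 96 h and 859.5 and 695 after 7 d in JNKi cells. In DMSO cells Tk1 measured 2715 and 3695 after 24 h, 1791 and 1305 after 48 h, 1308 and 1456 after 72 h, 352 and 245 after 96 h and 666 and 1176 after 7 d. At 96 h it averaged 219.8 ± 7.14 with JNKi, against 2810 ± 711 at 24 h, and 298.1 ± 75.5 with DMSO, against 3205 ± 693 at 24 h (SD, n = 2 each). The change was -3.65 (SE 0.24, adjusted p = 5.83e-09) with JNKi and -3.43 (SE 0.24, adjusted p = 5.78e-09) with DMSO, and at 7 d against 96 h Tk1 rose by 1.81 (SE 0.24, adjusted p = 3.71e-05) with JNKi and by 1.59 (SE 0.24, adjusted p = 0.000133) with DMSO. Rrm2, the small subunit that limits the reductase, had a fall of similar shape. With JNKi, Rrm2 had 4453 and 5824 after 24 h, 3144 and 3453 after 48 h, 3165 and 2977 after 72 h, 1224 and 1290.1 after 96 h and 3677 and 3220.3 after 7 d. Rrm2 with DMSO had 4936 and 7041 after 24 h, 3416 and 3199.9 after 48 h, 2886 and 3008 after 72 h, 1152 and 1442 after 96 h and 2442 and 2774 after 7 d. The JNKi 7 d libraries were above those at 72 h and the DMSO 7 d libraries below, and the rise at 7 d against 96 h was 1.45 (SE 0.15, adjusted p = 3.76e-06) with JNKi and 1.01 (SE 0.15, adjusted p = 0.000117) with DMSO. Tyms measured 1193 and 1467 after 24 h, 1044 and 1045 after 48 h, 869.8 and 853 after 72 h, 495 and 548 after 96 h and 740.3 and 709.7 after 7 d in JNKi cells. In DMSO cells Tyms measured 1406 and 1953 after 24 h, 1072 and 896 after 48 h, 903 and 883 after 72 h, 538 and 498 after 96 h and 845 and 925 after 7 d. Tyms was lowest at 96 h without overlap in both arms. Its change at 7 d against 24 h was -0.87 (SE 0.14, adjusted p = 5.43e-05) with JNKi and -0.91 (SE 0.14, adjusted p = 3.21e-05) with DMSO.

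Behind the fork, Chaf1a and Chaf1b lay down histones on new DNA, and Uhrf1 brings the maintenance DNA methyltransferase to it. All 3 fell at 96 h and at 7 d in both arms. With JNKi, Uhrf1 had 4931 and 6409.8 after 24 h, 3735 and 3738 after 48 h, 3105 and 2956 after 72 h, 1060.2 and 1320.2 after 96 h and 2559 and 2188 after 7 d. Uhrf1 with DMSO had 5793 and 7290.1 after 24 h, 4662 and 3905 after 48 h, 3509 and 3842 after 72 h, 1623 and 1528 after 96 h and 2111 and 2587 after 7 d. Uhrf1 means were lower at each time up to 96 h, and at 7 d Uhrf1 stood below all earlier libraries of its arm except those at 96 h. It changed by -2.25 (SE 0.15, adjusted p = 5.22e-09) with JNKi and -2.04 (SE 0.15, adjusted p = 6.92e-09) with DMSO at 96 h. Chaf1b measured 2000.4 and 3151 after 24 h, 1596 and 1783 after 48 h, 1462 and 1291 after 72 h, 788 and 900.2 after 96 h and 1483 and 1288 after 7 d in JNKi cells. In DMSO cells Chaf1b measured 2316 and 3458 after 24 h, 1893 and 1734 after 48 h, 1621 and 1539 after 72 h, 965 and 808 after 96 h and 1537 and 1748 after 7 d. Chaf1b at 7 d overlapped its 72 h libraries in both arms, with changes against 24 h of -0.86 (SE 0.19, adjusted p = 0.000936) with JNKi and -0.79 (SE 0.19, adjusted p = 0.00176) with DMSO.

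Cyclins E1 and E2 (Ccne1, Ccne2) activate the kinase that starts S phase, and E2f1 is the founding E2F activator. None of the 3 passed the test at 48 h or 72 h in either arm, and all 3 fell at 96 h in both. With JNKi, Ccne1 had 724 and 863 after 24 h, 799 and 918 after 48 h, 846 and 874 after 72 h, 397 and 483 after 96 h and 768 and 664 after 7 d. Ccne1 with DMSO had 829 and 982 after 24 h, 912 and 768 after 48 h, 814 and 898 after 72 h, 447 and 372 after 96 h and 464 and 722 after 7 d. The Ccne1 libraries at 24, 48 and 72 h overlapped in each arm, and both 96 h libraries were the lowest. It changed by -0.85 (SE 0.18, adjusted p = 0.000583) with JNKi and -1.14 (SE 0.18, adjusted p = 3.07e-05) with DMSO at 96 h. Ccne2 measured 248 and 289 after 24 h, 190.2 and 224 after 48 h, 218 and 250.2 after 72 h, 117 and 128 after 96 h and 241 and 186 after 7 d in JNKi cells. In DMSO cells Ccne2 measured 230.5 and 336 after 24 h, 245 and 224 after 48 h, 200.1 and 257 after 72 h, 115 and 117 after 96 h and 163 and 185 after 7 d. Ccne2 at 96 h was below every other library in both arms. Its changes at 96 h were -1.12 (SE 0.19, adjusted p = 9.74e-05) with JNKi and -1.25 (SE 0.19, adjusted p = 2.74e-05) with DMSO. With JNKi, E2f1 had 1356 and 1816 after 24 h, 1454 and 1644 after 48 h, 1490.4 and 1405 after 72 h, 847 and 988 after 96 h and 1497 and 1592 after 7 d. E2f1 with DMSO had 1499.6 and 2142 after 24 h, 1560.2 and 1529 after 48 h, 1462 and 1438 after 72 h, 979.5 and 988 after 96 h and 1296 and 1621 after 7 d. E2f1 at 7 d overlapped its 24 h values in both arms, at -0.02 (SE 0.15, adjusted p = 0.902) with JNKi and -0.31 (SE 0.15, adjusted p = 0.0945) with DMSO. At 7 d against 24 h none of the 3 passed the test with JNKi, and Ccne1 and Ccne2 passed it with DMSO at -0.64 (SE 0.18, adjusted p = 0.0053) and -0.68 (SE 0.19, adjusted p = 0.00634). Neither was past the test when DMSO 24 h replicate 2, or DMSO 7 d replicate 1, was left out.

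Few members passed the unpaired tests between JNKi and DMSO cells of the same time. No member passed the test at 24, 48, 72 or 96 h in limma, edgeR's quasi-likelihood test or DESeq2. The background over all genes in limma was 0%, 0%, 0.072% and 0.0072%. None of these tests pairs libraries, while same-number libraries shared deviations between the arms at these times (correlations of 0.53 to 0.73). A difference by replicate number may therefore be missed. A model with a replicate block within each time was also run for these comparisons, and its counts at these times are not reported here. At an unadjusted p under 0.05 in limma there were 5, 0, 1 and 5 members at those times. The same count over all genes is not set beside them, so nothing is read from them. All 46 members had a lower mean with JNKi than with DMSO at 24 h (median log2 difference -0.20, against 0.00 over all genes tested). JNKi replicate 1 was below DMSO replicate 1 in 45 members and JNKi replicate 2 below DMSO replicate 2 in all 46, but both JNKi libraries lay below both DMSO libraries in 4 members, where 12.3% of all genes tested did. The same held for 5 members at 48 h (15.3% of genes), 22 at 72 h (18.1%) and 18 at 96 h (19.7%), so the share was above that of all genes at 72 and 96 h and not at 24 and 48 h, and no test was made of it. The medians at 48, 72 and 96 h were -0.03, -0.08 and -0.10. The 95% intervals of single members reached from -0.77 to 0.35 at 24 h, -0.62 to 0.52 at 48 h, -0.92 to 0.45 at 72 h and -0.92 to 0.50 at 96 h at their outermost.

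At 7 d, 3 of 46 members passed the test between JNKi and DMSO (background 10.2% of genes tested), 2 of them higher with JNKi (4.84%) and 1 lower (5.33%), at a median of 0.07 over the members and 0.02 over all genes tested. A share of 3 in 46 lies below the background. Both JNKi libraries lay below both DMSO libraries in 7 members (26.2% of genes tested). They lay above both in 10 members (32.0% of genes tested). Non-overlap at 7 d was thus no more common among members than over all genes, and no test was made of it. Fen1, the flap endonuclease, with the values given above, rose by 0.78 (SE 0.16, adjusted p = 0.00591). Chaf1a, the large subunit of the histone chaperone, measured 1952 and 1767 at 7 d with JNKi and 1210.2 and 1502 with DMSO. The JNKi libraries lay above the DMSO libraries, and the difference was 0.46 (SE 0.13, adjusted p = 0.031). Pola1, the catalytic subunit of polymerase alpha, measured 676 and 637 with JNKi and 843 and 918 with DMSO. It was lower with JNKi without overlap, at -0.42 (SE 0.10, adjusted p = 0.0144), and it was the only member past the test in the mean over the 5 times, at -0.23 (SE 0.05, adjusted p = 0.00853) (background 4.77%, and 2.32% lower). The count for that mean was 3 with TMM scaling, 3 with edgeR and 4 with DESeq2, all lower with JNKi. Leaving out JNKi 24 h replicate 2 gave 5, JNKi 48 h replicate 1 gave 2, DMSO 24 h replicate 1 gave 6 and DMSO 7 d replicate 1 gave 2, again all lower.

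These 3 calls rested on single libraries. Fen1 was not past the test without DMSO 7 d replicate 1 (0.53, adjusted p = 0.107) or without JNKi 7 d replicate 1 (0.63, adjusted p = 0.0947), the shallowest library. Pola1 lost its call without DMSO 7 d replicate 2, JNKi 7 d replicate 1 or JNKi 7 d replicate 2, where the adjusted p was 0.0699, 0.0618 and 0.105. Chaf1a lost it without DMSO 7 d replicate 1, JNKi 7 d replicate 1 or JNKi 7 d replicate 2, where the adjusted p was 0.293, 0.217 and 0.0762. With all libraries kept, Chaf1a also lost its call in limma without the intensity trend (adjusted p = 0.068). Fen1 overlaps Tmem258 and Chaf1a overlaps Ubxn6 in the RefSeq annotation. The counting is not stated to use strand, so reads of each pair may be mixed. Tmem258, listed under 1810006K21Rik, differed between JNKi and DMSO at 7 d by -0.02 (SE 0.10, adjusted p = 0.912) and Ubxn6 by -0.05 (SE 0.11, adjusted p = 0.787). Both neighbours were looked up after the values were seen. Of the 46 members, 19 overlap another annotated gene.

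Other members, some with a difference as large as that of Pola1, did not pass the test at 7 d. On the low side, Dut measured 1558 and 1342 with JNKi and 1816 and 2099 with DMSO, at -0.43 (SE 0.14, adjusted p = 0.0519). Its libraries did not overlap, and it passed the test in 12 of 32 other settings. Tyms was at -0.29 (SE 0.14, adjusted p = 0.188), Chaf1b at -0.25 (SE 0.19, adjusted p = 0.425), Orc6 at -0.23 (SE 0.13, adjusted p = 0.265) and Pold2 at -0.22 (SE 0.15, adjusted p = 0.355). Pold2, a polymerase delta subunit, measured 1039.8 and 1024 with JNKi and 1082 and 1334 with DMSO, lower with JNKi without overlap. On the high side Orc1, the largest origin recognition subunit, measured 313 and 269 with JNKi and 194 and 236 with DMSO, without overlap, at 0.44 (SE 0.15, adjusted p = 0.07), and Rpa2 was at 0.42 (SE 0.18, adjusted p = 0.149). Rrm2 was at 0.40 (SE 0.15, adjusted p = 0.0973), higher with JNKi without overlap, and passed the test in 4 of 32 other settings. Between the extremes lay the MCM ring, where none of 6 passed the test and differences ran from -0.18 to 0.26, and Pcna, at 0.05 with a 95% interval of -0.26 to 0.35. Over all members the 95% intervals at 7 d reached from -0.72 to 1.12.

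**Figure D4:**
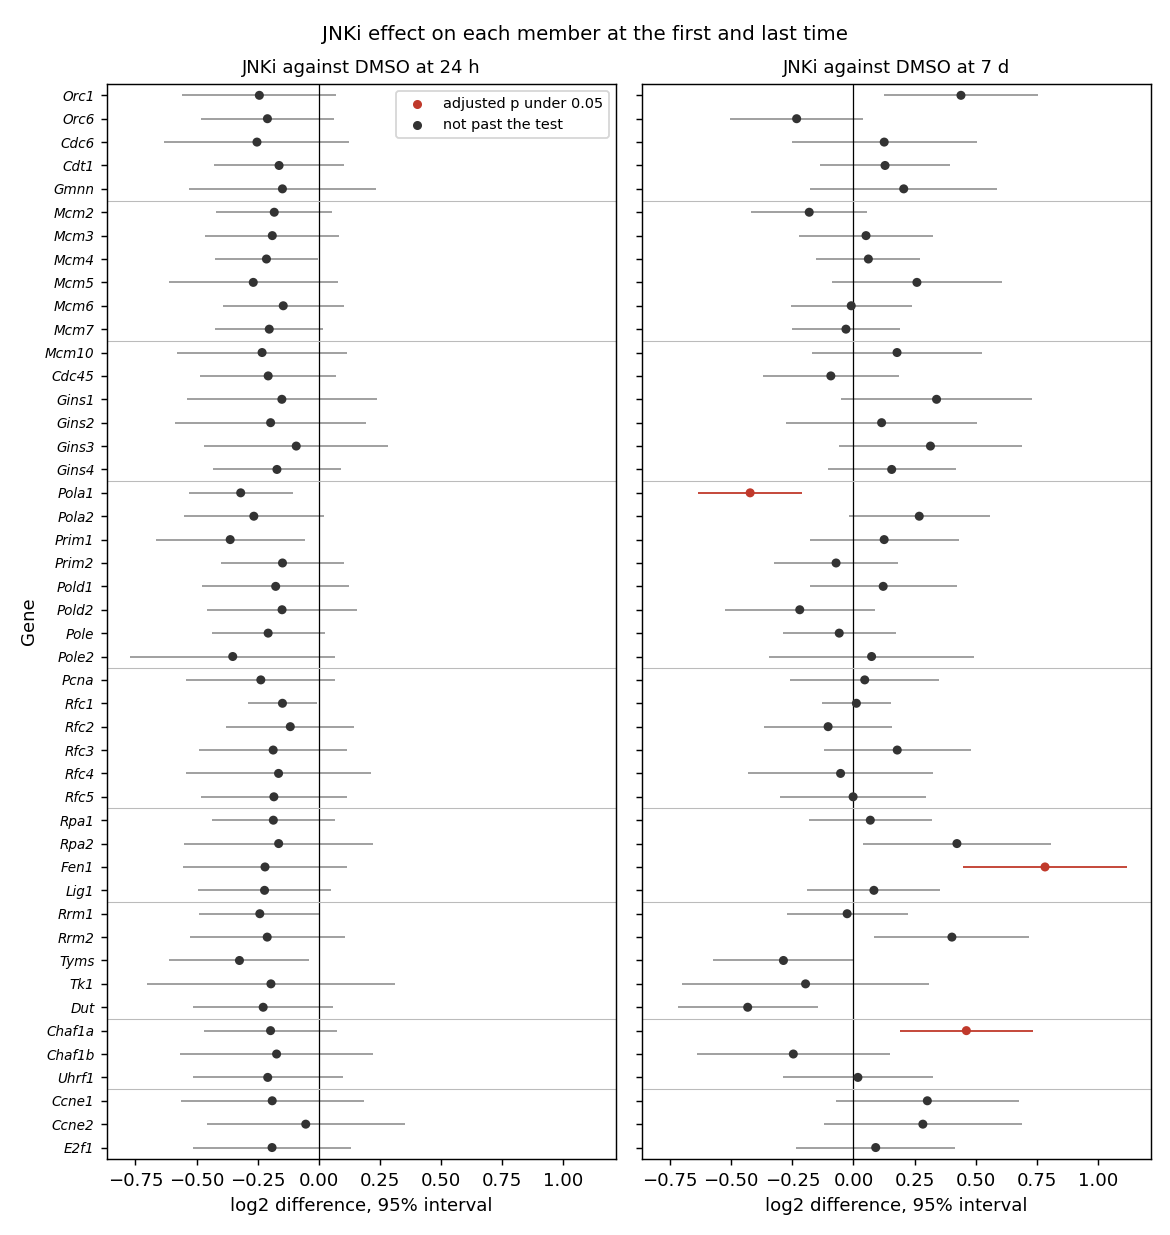
Log2 difference between JNKi and DMSO for each member (rows) with its 95% interval, at 24 h (left) and 7 d (right), with members past the test in red. At 24 h all 46 points lie below 0 and none is red; at 7 d the points spread from -0.43 to 0.78, with Fen1 and Chaf1a in red above 0 and Pola1 in red below.

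A test of whether the inhibitor effect differed between 7 d and 24 h called 1 member, Fen1, at 1.00 (SE 0.23, adjusted p = 0.0304) (background 2.1% of genes tested, 0.799% higher). At 24 h Fen1 had 1939.7 and 2582 with JNKi and 2308 and 2945 with DMSO, with JNKi lower by replicate number and the groups overlapping. Fen1 was no longer past it when JNKi 24 h replicate 1, JNKi 7 d replicate 1, DMSO 24 h replicate 2 or DMSO 7 d replicate 1 was left out, without the intensity trend and with only the 4 groups compared in the model. Next in size were Orc1 at 0.68 (SE 0.21, adjusted p = 0.107) and Chaf1a at 0.66 (SE 0.18, adjusted p = 0.0721). At 7 d against 24 h, 37 members passed the test as lower with JNKi and 43 with DMSO. In the main model these counts are therefore not shown to differ gene by gene beyond Fen1. More members passed the test of the difference with DESeq2 and with either replicate block, as counted in the closing section.

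Other genes of the pathway, on lists drawn up with earlier results of these data known, are given beside the share of all genes tested that was lower at 7 d than at 24 h, 26.3% with JNKi and 28% with DMSO. The share that was higher is not given. The numbers of rises against 24 h, here and in the next paragraph, are therefore not read against all genes. Of 14 further licensing and firing genes tested, 4 fell and 1 rose with JNKi and 6 fell with DMSO, and 4 of 14 is near that share. The checkpoint scaffold gene Topbp1 fell by 0.41 (SE 0.09) with JNKi and by 0.90 (SE 0.09) with DMSO, the most of the list with DMSO, and Mcm9 fell by 0.44 (SE 0.16) with JNKi and by 0.64 (SE 0.16) with DMSO. Of 16 further fork genes, 11 fell with JNKi and 10 with DMSO, and the nuclease-helicase Dna2 had 297 and 256 with JNKi at 7 d, against 521 and 543 at 24 h, and 168 and 244 with DMSO at 7 d, against 534 and 656 at 24 h. The Dna2 libraries at 7 d lay below those at 24 h in both arms, at -0.95 (SE 0.18) with JNKi and -1.54 (SE 0.18) with DMSO. Further nucleotide genes split, with 6 of 11 lower and 4 higher in each arm: Dctpp1 fell by 0.92 (SE 0.20) with JNKi and 1.32 (SE 0.20) with DMSO, and the CTP synthase gene Ctps rose by 0.89 (SE 0.09) with JNKi and 1.03 (SE 0.09) with DMSO. Rrm2b, the reductase subunit used outside S phase, rose by 0.59 (SE 0.13) with JNKi and 0.84 (SE 0.13) with DMSO, while Rrm2 fell. Of 9 genes of histone supply and chromatin at the fork, 8 fell with JNKi and 9 with DMSO, the histone chaperone gene Nasp most in both arms, by 1.21 (SE 0.13) with JNKi and 1.45 (SE 0.13) with DMSO. Asf1b, another histone chaperone, fell by 0.64 (SE 0.16) with JNKi and 0.97 (SE 0.16) with DMSO. Chtf18, a clamp loader subunit, fell by 0.52 (SE 0.17) with JNKi and 1.26 (SE 0.17) with DMSO.

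Regulators above the S-phase genes changed in mixed directions. Cyclin A2 (Ccna2) fell by 0.72 (SE 0.15) with JNKi and 1.10 (SE 0.15) with DMSO at 7 d, and the phosphatase gene Cdc25a by 0.50 (SE 0.13) and 0.92 (SE 0.13). Cyclin D2 (Ccnd2) had 3097 and 3382 with JNKi at 7 d, against 1174 and 1197 at 24 h, and 4957 and 4418 with DMSO at 7 d, against 1085 and 1067 at 24 h. It rose in both arms, by 1.45 (SE 0.12) with JNKi and 2.12 (SE 0.12) with DMSO, opposite to the replication genes. Among E2F and retinoblastoma genes, the repressor E2f8 fell by 0.51 (SE 0.16) with JNKi and 1.02 (SE 0.16) with DMSO, Rbl1 (p107) fell by 1.12 (SE 0.11) and 1.24 (SE 0.11), and Rb1 rose by 0.78 (SE 0.13) and 0.87 (SE 0.13). Counts over that list were 5 lower and 1 higher of 12 with JNKi and 9 lower and 1 higher with DMSO. Of 6 tested CDK inhibitor genes, 2 rose with JNKi, and 1 rose and 1 fell with DMSO. Cdkn2b, a known TGF-β target that blocks cyclin D kinases, rose by 0.25 (SE 0.09) with JNKi and 0.22 (SE 0.09) with DMSO, and Cdkn2c stood at -0.52 (SE 0.22) with JNKi, not past the test, and fell by 1.19 (SE 0.22) with DMSO.

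Between JNKi and DMSO at 7 d, where 5.33% of all genes tested were lower and 4.84% higher, 2 of 8 cyclin and CDK genes were lower and 1 higher, 1 of 12 E2F and retinoblastoma genes was lower, 1 of 6 CDK inhibitor genes was higher and 2 of 14 licensing and firing genes were higher. None of the further fork, nucleotide or chromatin genes passed the limma test there. The cyclin D1 gene Ccnd1 measured 21059 and 20998 with JNKi and 14324 and 12656 with DMSO, and Cdkn1a, which encodes the CDK inhibitor p21, measured 7683 and 7907 with JNKi and 4482 and 6371 with DMSO. Both were higher with JNKi without overlap, Ccnd1 by 0.64 (SE 0.13, adjusted p = 0.00658) and Cdkn1a by 0.54 (SE 0.13, adjusted p = 0.0136). Ccnd2 was lower by 0.53 (SE 0.12, adjusted p = 0.00856), Cdk4 by 0.35 (SE 0.09, adjusted p = 0.0275) and E2f4 by 0.34 (SE 0.08, adjusted p = 0.0106). Cdkn1b, which encodes p27, was at -0.15 (SE 0.12, adjusted p = 0.426), not past the test. The origin kinase gene Cdc7 rose by 0.56 (SE 0.15, adjusted p = 0.0272) and Topbp1 by 0.30 (SE 0.09, adjusted p = 0.0433).

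The mitosis genes, a list of 20 that act after S phase, fell and rose at the same times. All 20 fell at 96 h against 24 h in both arms, at medians of -1.97 with JNKi and -2.15 with DMSO. Over all genes tested, 29% were lower there with JNKi and 30.5% with DMSO. All 20 rose at 7 d against 96 h, at medians of 1.42 and 1.20 (23.2% and 21% of all genes tested higher). At 7 d against 24 h, 17 had fallen with JNKi (26.3% of all genes tested lower) and 20 with DMSO (28%). Between JNKi and DMSO at 7 d, 3 of the 20 rose (4.84% of all genes tested), namely Aurkb by 0.52 (SE 0.16), Kif20a by 0.52 (SE 0.14) and Cenpf by 0.46 (SE 0.12). No test set the mitosis list against the 46 members.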

How the data were processed

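RNA of NMuMG cells was sequenced, and 20 libraries with JNKi or DMSO are used here. The deposited values are signal: read counts per gene normalized with DESeq, after TopHat on mm9 and HTSeq, per the submitters' processing notes, where versions are absent; whether counting used strand, and with which annotation, is not stated there. Every deposited signal value above 0 was within 0.1 of a whole number of reads in a constant step per library, so reads were recovered, at 9.49 to 48.6 M per library, for edgeR and DESeq2. The time course of 15 samples was not used, because its values are split at the decimal point in the deposited table.

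The main test was limma 3.58.1 under R 4.3.3, its variance prior following mean intensity, on log2(value + 1), all 20 libraries, 1 mean per group, over 13896 of 20261 genes with a group mean of 10 or more, among them all 46 members. Benjamini-Hochberg adjustment ran over all genes tested, with 0.05 as the threshold. Alternatives were pseudocounts of 0.5 and 8, no filter and a filter at 50, TMM and upper-quartile scaling, no trend, edgeR 4.0.16 quasi-likelihood, DESeq2 1.42.0, a replicate block, only the groups compared, and each library left out; the limma, edgeR and DESeq2 code was tested on simulated data. The 96 h against 72 h comparisons were added after the values were seen.

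The members and lists were chosen with earlier results of these data known. Described in full were the genes with the largest and smallest change of each role at 7 d against 24 h with DMSO, Pcna, Mcm2, Cdc6, Ccne1, Ccne2, E2f1, Rrm2 and Tk1, the 6 lowest and 4 highest at 7 d between JNKi and DMSO, and any called in the test of the difference. Of other lists, the 2 largest calls per direction and Cdkn1a, Cdkn1b and Ccnd1 were named, except that some items of the lists are not reported here. Replicate numbers shared by groups were not taken to pair libraries, since not every pair of groups had deviations that correlated above 0.1. That rule also took in pairs of groups at different times, which a comparison of the arms at one time does not use. Within a time the arms correlated at 0.53 to 0.73 at 24 to 96 h and at 0.07 at 7 d. The unpaired tests at 24 to 96 h thus leave this shared deviation in their spread. Intervals cover 95%.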

Additional observations from a re-analysis of the deposited data

Results flagged for a closer look

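The effect of JNKi on Fen1, the flap endonuclease, differed between 7 d and 24 h by 1.00 on the log2 scale in the test of the difference itself. Fen1 was the only member past that test in the main model, and the settings in which it was not past it are named beside the result above.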

How the results depend on the processing

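At 7 d, no called member changed direction in any of 32 alternatives for JNKi against DMSO or of 31 for 7 d against 24 h with DMSO; sign changes of members not past the test in both settings were not counted. With each library left out in turn, the number of members past the test ranged as follows. With JNKi against 24 h it was 0 to 30 at 48 h, 20 to 38 at 72 h, 44 to 46 at 96 h and 27 to 39 at 7 d. With DMSO it was 13 to 41 at 48 h, 27 to 43 at 72 h, 45 to 46 at 96 h and 39 to 45 at 7 d. For 7 d against 96 h it was 25 to 38 with JNKi and 10 to 32 with DMSO, and for 96 h against 72 h it was 31 to 42 with JNKi and 36 to 42 with DMSO. Between JNKi and DMSO it was 0 at each of 24, 48, 72 and 96 h, 0 to 5 at 7 d, 1 to 6 for the mean over 5 times and 0 to 3 for the difference between 7 d and 24 h.

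With only the groups compared in the model, which leaves fewer samples for the spread, the count became 0 at 48 h and 20 at 72 h with JNKi, 1 at 48 h with DMSO, 5 between JNKi and DMSO at 7 d and 0 for the difference between 7 d and 24 h. For the mean over 5 times it was 3 with TMM scaling, 3 with edgeR and 4 with DESeq2, all lower with JNKi. For the difference between 7 d and 24 h it was 0 without the trend and 2 with DESeq2. The cause was not tested. Samples of the same number shared deviations between the arms at 24 to 96 h (correlations of 0.53 to 0.73) but not at 7 d (0.07). With the replicate block over all samples, 5 members passed between JNKi and DMSO at 7 d, 2 in the mean and 2 in the difference. With the replicate block within each time there were 10, 13 and 9. Of all genes past the test between JNKi and DMSO at 7 d, 47.6% were higher with JNKi, and 37.4% with TMM scaling. The model with only the groups compared was not run for the mean over 5 times. The precision is limited by 2 libraries per group.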
